A study of Rattus norvegicus with 7 samples.

Results

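Genes of laminins, matrix glycoproteins and proteoglycans were followed in the rat kidney epithelial line NRK-52E after transfection with siRNA against Adamts16. Adamts16 encodes a secreted metalloprotease, and relatives of it are known for cutting large matrix proteoglycans. The rule was a list of 38 gene symbols looked up in the platform annotation. The lookup used no signal, but the genes were chosen with earlier results of these data known. Of the 38 genes, 37 had a probe set that carries their symbol alone, of 14217 symbols on the array. A probe set is a group of short probes for 1 transcript, read out as 1 signal in arbitrary units. The 37 genes had 60 of the 31042 probe sets that are not controls. Thbs1, the thrombospondin 1 gene, had no such probe set and is not analysed here.

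The 3 groups were cells given siRNA 3488 (2 independent cultures), siRNA 2600 (2) and a scrambled siRNA (3), with 1 array for each culture. All 3 groups were grown in medium with 10% fetal bovine serum, seeded at 20% confluence, transfected by lipofection with 100 pmol of duplex per ml and taken for RNA 48 h later. The knockdown was transient, and no untransfected culture was analysed here. The only Adamts16 probe set read 12.1 and 40.4 on the siRNA 3488 arrays, 21.4 and 2.42 on those of siRNA 2600, and 8.68, 7.18 and 18.9 on the scrambled arrays. All of these signals lie under the level of 68.2 that a probe set needed on average to be tested, so these arrays do not show how far Adamts16 was lowered.

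The trimmed mean signal of each array was 500.1 to 500.2, which shows that the deposited values were already scaled, and the number of arrays limits the precision. Of 9 kidney epithelial markers, Krt8, Krt19, Tjp1 and Ocln passed the signal filter, and Cdh1, Epcam, Krt18, Cdh16 and Cldn1 did not. Of 8 proximal tubule markers 4 passed, and Cubn, Slc34a1, Slc5a2 and Hnf4a did not. Of 8 fibroblast markers 5 passed, 1 of 4 endothelial, 4 of 5 smooth muscle and 1 of 5 leukocyte markers. The endothelial marker Pecam1 and the leukocyte marker Ptprc were under the filter.

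A basement membrane is a thin sheet under epithelia, built on a laminin network to which nidogens, perlecan and agrin are tied. A laminin is a trimer of an α, a β and a γ chain, and in tubular epithelium it anchors the basal side through integrins and dystroglycan. Fibronectin forms fibrils around cells, matricellular proteins such as SPARC and osteopontin act on cells more than they bear load, and small leucine-rich proteoglycans such as biglycan bind collagen and growth factors. Syndecans and glypicans carry heparan sulfate at the cell surface, a sugar chain made by the EXT polymerases and patterned by sulfotransferases, whose sulfate groups decide which growth factors it binds. Fibronectin and biglycan are well known to accumulate in scarred kidney.

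The agents that set the groups apart are shown first, since the results below turn on how siRNA 3488 and siRNA 2600 differ. The antisense strands are given 5′ to 3′ from the labels, without their overhangs, with the seed (bases 2 to 8, the part that pairs first with a target) in capitals:
siRNA 3488: tTTCCGGAgacgtacttct
siRNA 2600: tTGCGCACagaaatatagg
scrambled siRNA: aTTACCGAgcacattggagg
The strands are 19, 19 and 20 bases long, and no seed occurs in more than 1 of them. Matches of these seeds in member transcripts were not examined.

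With siRNA 3488 the laminin chain genes Lama5, Lamb1 and Lamc1, the nidogen gene Nid2, Fn1, Sparc, Bgn, the syndecan gene Sdc4 and the heparan sulfate enzyme genes Ext2 and Hs6st1 were higher than with the scrambled siRNA, and the glypican gene Gpc6 was lower. With siRNA 2600 only Spp1, the osteopontin gene, and the syndecan gene Sdc1 passed, both higher. No member gene passed with both siRNAs. Of all 18625 tested probe sets 2911 passed with siRNA 3488 and 192 with siRNA 2600. At these rates the lack of a shared gene does not show that the siRNAs act on different genes. Apart from Hs6st1 (6.64-fold) the rises were small, 1.15 to 1.4-fold, and 3 probe sets of Gpc6 read 0.29, 0.61 and 0.70 of the scrambled control. The 0.29 is of the dimmest Gpc6 probe set, and the brightest read 0.86 of the control and did not pass.

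A probe set was tested if its mean log2 signal was in the upper 60% of all, which left 39 probe sets of 28 genes. It was called where the limma adjusted p, after Benjamini-Hochberg over all 18625 tested probe sets, was under 0.05. With siRNA 3488 against scrambled control 11 of the 39 were called higher and 3 lower, beside 6.89% higher and 8.74% lower among all tested. With siRNA 2600 against scrambled control 2 were called higher and 0 lower, beside 0.548% and 0.483%. Directly between the siRNAs, siRNA 3488 against siRNA 2600, 5 were called higher and 3 lower, beside 2.84% and 3.17%. For both siRNAs together against scrambled control limma called 0, beside 0.102% higher and 0.043% lower among all. Of the 39, 9 had an unadjusted p under 0.05 there, beside 17.8% of all tested. The single-siRNA comparisons use the same 3 scrambled arrays and are not independent of each other.

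Taking the brightest probe set of each of the 28 genes, the median log2 change was 0.16 with siRNA 3488, with 21 genes above 0, beside a median of -0.06 and 41.3% above 0 over all tested probe sets. With siRNA 2600 the median was 0.05, with 22 genes above 0, beside -0.02 and 45.5%. These references include many dimmer probe sets and are not matched for signal. In the brightest 10% of all tested, which held 16 member probe sets, the medians were 0.15 with siRNA 3488 and 0.05 with siRNA 2600. In the next brightest 10%, which held 7, the median with siRNA 3488 was -0.04. A shift of the genes beyond that of probe sets of like signal was not tested. The dot plots of log2 changes show the rises with siRNA 3488 spread over the basement membrane, fibronectin and heparan sulfate groups, and the falls in Gpc6. RNA of whole cultures was measured, so a change in the share of a cell type and a change of RNA per cell cannot be told apart.

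**Figure D1:**
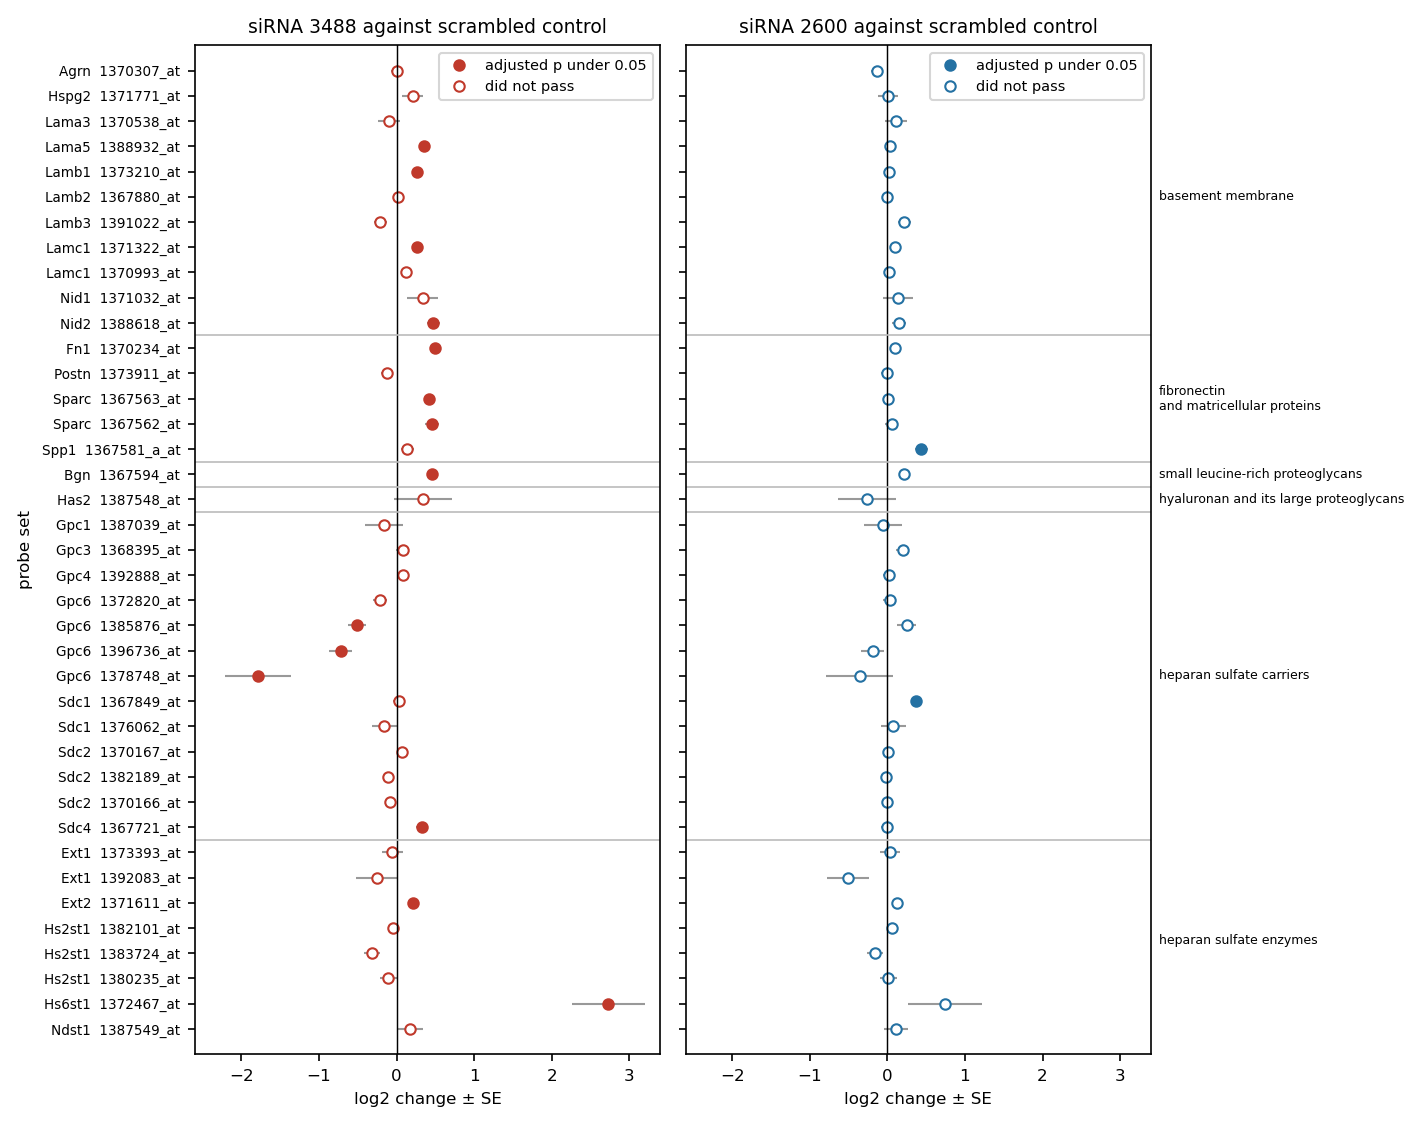
Log2 change ± standard error (limma) of the 39 tested probe sets, siRNA 3488 against scrambled control on the left and siRNA 2600 against scrambled control on the right, by group of genes. Filled points passed an adjusted p under 0.05; these are 14 with siRNA 3488 (11 higher, 3 lower) and 2 with siRNA 2600.

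These counts moved with the array scaling and with single arrays. After quantile normalization siRNA 3488 gave 4 higher and 3 lower, and after cyclic loess 5 higher and 2 lower. The 3 lower after quantile normalization were 2 Gpc6 probe sets and Spp1, which was not called as deposited and turned to -0.23 there (limma adjusted p = 0.0179). Without siRNA 3488 replicate 2 the 14 calls became 3, without scrambled control replicate 1 they became 7 and without replicate 2 they became 8. The 2 calls with siRNA 2600 became 0 without any 1 of the 3 scrambled arrays and 1 without siRNA 2600 replicate 2 or either siRNA 3488 array. For both siRNAs 4 were called without siRNA 2600 replicate 1. Bgn and Fn1 stayed higher with siRNA 3488 under all 18 alternatives, 11 settings and 7 arrays left out.

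Signal strength moved with the result. Of the 39 probe sets 16 lay in the brightest 10% of those tested (mean signals of 2514 and more), and 9 of the 11 called higher with siRNA 3488 were among these 16. In that range 37.4% of all probe sets were called higher with siRNA 3488, with a median log2 change of 0.15. The 18 probe sets of the hybridisation spike-ins, which are not rat RNA, differed from the scrambled mean by a median log2 of 0.34 and 0.705 on the siRNA 3488 arrays, and of -0.08 and 0.13 on the siRNA 2600 arrays. The β-actin ratio of 3′ to 5′ signal, a measure of RNA integrity and labelling, came to 1.96 and 1.94 on the siRNA 3488 arrays, 1.83 and 1.81 on those of siRNA 2600, and 1.74, 1.76 and 1.79 on the scrambled arrays. The part of these measures in the rises was not tested.

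**Figure D2:**
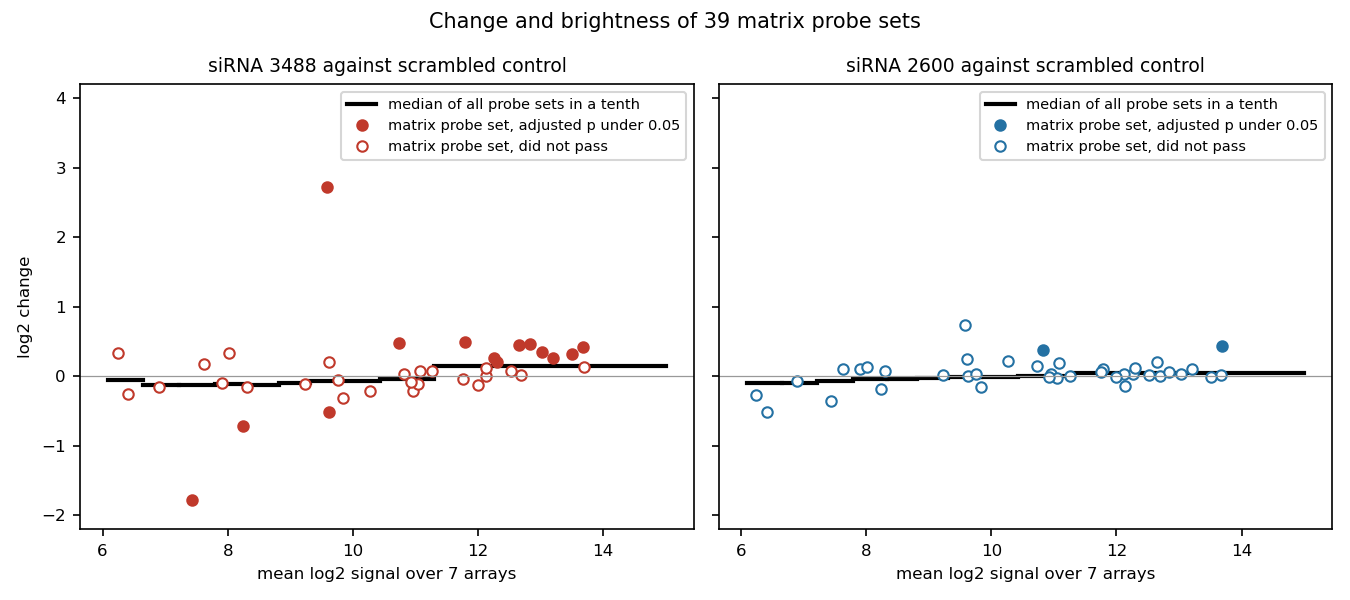
Log2 change of the 39 tested probe sets (points) against their mean log2 signal over the 7 arrays, siRNA 3488 on the left and siRNA 2600 on the right, each against scrambled control. Black bars are the medians of all 18625 tested probe sets in each of 10 bins of signal; the last bar stands at 0.15 with siRNA 3488 and at 0.05 with siRNA 2600.

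Of the 7 tested fibroblast probe sets 4 were called higher with siRNA 3488, those of Col1a1, Col3a1 and Mfap5, beside 6.89% of all tested. The probe sets of Col3a1 and Mfap5 and the brighter of those of Col1a1 lay in the brightest 10% of all tested. In that range 37.4% of all probe sets were called higher with siRNA 3488. The summed signal of the 8 fibroblast genes came to 51025 and 56563 on the siRNA 3488 arrays. It was 39467 and 43547 on those of siRNA 2600, and 37568 to 40589 on the scrambled arrays. Of the 5 leukocyte markers Cd68 was called higher with siRNA 3488 (log2 0.67), and their sum came to 449.9 and 482 on the siRNA 3488 arrays, 255 and 387 on those of siRNA 2600, and 308 to 395 on the scrambled arrays. No marker of the other lists was called with either siRNA. The summed signal of the kidney epithelial markers came to 13903 and 13197 on the siRNA 3488 arrays, 12722 and 12370 on those of siRNA 2600, and 12491 to 13432 on the scrambled arrays. Proximal tubule markers summed to 1196 and 1363 on the siRNA 3488 arrays, 1148 and 1264 on those of siRNA 2600, and 999.5 to 1179 on the scrambled arrays. Endothelial markers summed to between 273 and 361 on all arrays, and smooth muscle markers to 2879 and 3318 on the siRNA 3488 arrays, 3463 and 2851 on those of siRNA 2600, and 2545 to 2849 on the scrambled arrays. Their part in the changes of the matrix genes was not tested.

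The plot of signals by gene shows all 37 genes. Signals of different probe sets depend on their probes and are not compared as levels. In all, 21 probe sets were untested, with signals of 1.05 to 119, and 9 genes had no other.

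**Figure D3:**
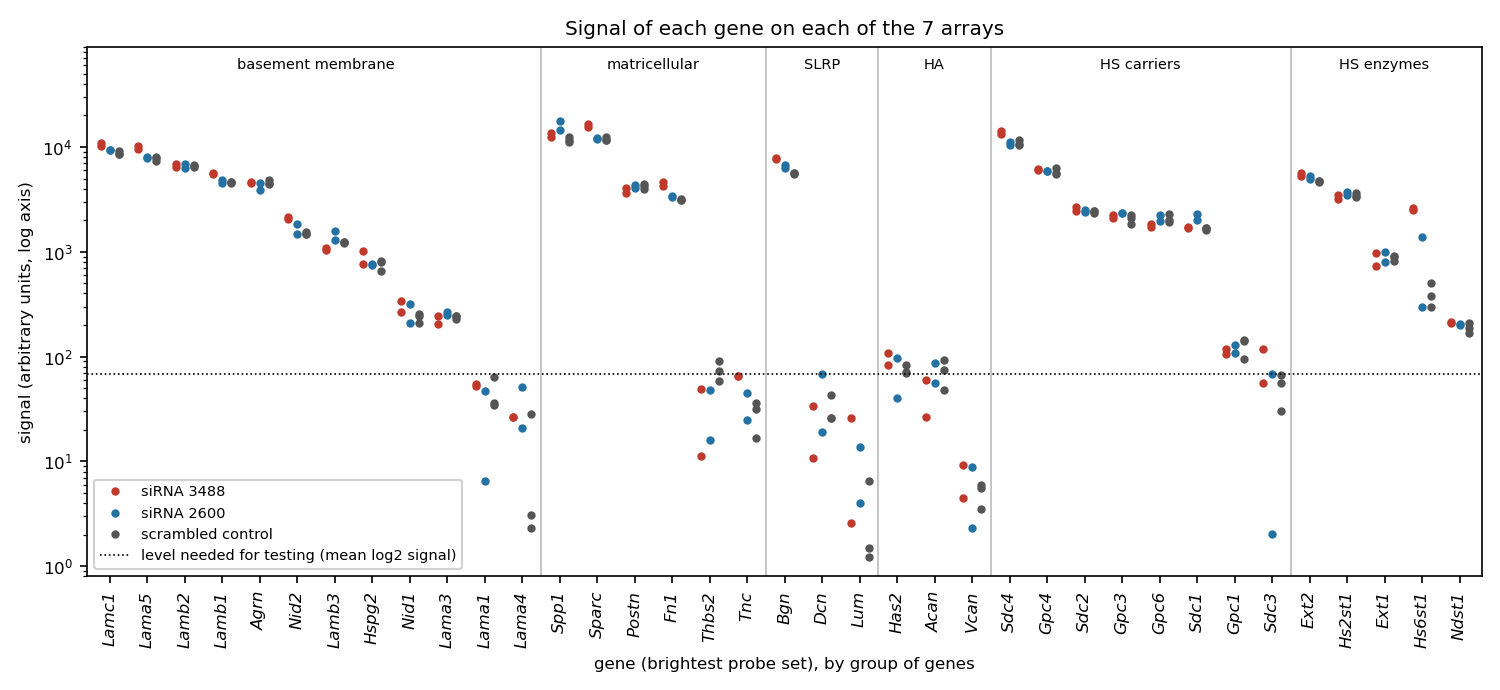
Signal (arbitrary units, log axis) of the brightest probe set of each of 37 genes on the 7 arrays, by group: basement membrane, matricellular proteins with fibronectin, small leucine-rich proteoglycans (SLRP), hyaluronan and its large proteoglycans (HA), heparan sulfate (HS) carriers and HS enzymes. The dotted line is the signal of 68.2 needed on average for testing; 28 genes pass it and 9, among them Dcn, Lum and Vcan, do not.

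Basement membrane genes were the largest group, with 12 genes, of which 10 had 11 tested probe sets. With siRNA 3488, 4 of the 10 genes were called higher and 0 lower, with a median log2 change of 0.24. Of the 11 probe sets 4 were called higher, beside 6.89% of all tested and 37.4% of those in the brightest 10%. The tested probe sets of Lama5, Lamb1, Lamb2, Lamc1 and Agrn lay in that brightest range. With siRNA 2600 limma called 0 of them, 1 of 11 probe sets had an unadjusted p under 0.05, beside 15.2% of all tested, and the median was 0.07. The laminin genes called higher encode 1 chain of each kind, the α5 chain (Lama5), the β1 chain (Lamb1) and the γ1 chain (Lamc1), which together form laminin-511.

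Lama5 read 9513 and 10239 on the siRNA 3488 arrays, 8016 and 7832 on those of siRNA 2600, and 7357, 7859.7 and 8027 on the scrambled arrays. Both siRNA 3488 arrays were above all others, and both siRNA 2600 arrays lay within the scrambled range. Its log2 change was 0.35 ± 0.06 with siRNA 3488 (limma adjusted p = 0.00819) and 0.03 ± 0.06 with siRNA 2600 (0.852), and between the siRNAs it was 0.32 ± 0.07 (0.033). A further pair of Lama5 probe sets was under the filter, with signals of 1.7 to 57.

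Lamb1 read 5566 and 5595 on the siRNA 3488 arrays, 4874 and 4562 on those of siRNA 2600, and 4582, 4638 and 4672 on the scrambled arrays. The siRNA 3488 arrays did not overlap with any other. The log2 change of Lamb1 was 0.27 ± 0.06 with siRNA 3488 (limma adjusted p = 0.0142) and 0.03 ± 0.06 with siRNA 2600 (0.877), and 0.24 ± 0.06 between the siRNAs, which did not pass (0.0512).

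Lamc1 had 2 tested probe sets. At 1371322_at it read 10136 and 10986 on the siRNA 3488 arrays, 9451 and 9346 on those of siRNA 2600, and 8595, 8590.1 and 9108 on the scrambled arrays. All siRNA arrays were above the scrambled range there, and the log2 change was 0.27 ± 0.06 with siRNA 3488 (limma adjusted p = 0.0187) and 0.10 ± 0.06 with siRNA 2600 (0.482). At 1370993_at the signals were 4574 and 4830.4 on the siRNA 3488 arrays, 4503 and 4337 on those of siRNA 2600, and 4226, 4378 and 4416 on the scrambled arrays. That probe set did not pass with siRNA 3488 (log2 0.12 ± 0.06, limma adjusted p = 0.214), so the 2 disagree on the call and not on the direction.

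Quantile normalization ended all 3 laminin calls, with log2 changes of 0.04 for Lama5, 0.12 for Lamb1 and -0.03 for Lamc1, which changed sign. Cyclic loess and a fit with no intensity trend also ended all 3. Without siRNA 3488 replicate 2 none of the 3 passed (limma adjusted p = 0.0626, 0.076 and 0.111), and without scrambled control replicate 1 or 2 Lamb1 (0.0603 and 0.0555) and Lamc1 (0.0735 and 0.0781) did not.

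The promoters of these 3 genes, picked because all 3 were called as deposited, are shown from RefSeq on build GRCr8. Whether the genes share a regulator was not tested. Each window runs 5′ to 3′ on the gene's strand from 250 bases before to 50 after the annotated start. Capitals mark matches to GGGCGG, the core of the GC box that binds Sp1-type factors, or to its reverse complement CCGCCC. The windows are chr3:187695925-187696224 (minus strand, Lama5), chr6:53562846-53563145 (plus strand, Lamb1) and chr13:68051937-68052236 (minus strand, Lamc1):
Lama5: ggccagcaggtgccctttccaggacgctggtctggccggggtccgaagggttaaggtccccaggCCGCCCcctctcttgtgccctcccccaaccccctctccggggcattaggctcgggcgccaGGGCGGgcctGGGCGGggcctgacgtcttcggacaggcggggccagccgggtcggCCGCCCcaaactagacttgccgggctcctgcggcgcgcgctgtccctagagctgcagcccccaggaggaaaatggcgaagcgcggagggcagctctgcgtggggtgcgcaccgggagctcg
Lamb1: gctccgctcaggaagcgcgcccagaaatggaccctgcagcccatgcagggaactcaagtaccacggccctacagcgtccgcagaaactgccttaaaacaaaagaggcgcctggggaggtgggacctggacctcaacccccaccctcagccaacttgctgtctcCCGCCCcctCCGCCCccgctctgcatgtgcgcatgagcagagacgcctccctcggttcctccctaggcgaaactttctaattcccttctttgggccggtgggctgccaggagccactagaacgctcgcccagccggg
Lamc1: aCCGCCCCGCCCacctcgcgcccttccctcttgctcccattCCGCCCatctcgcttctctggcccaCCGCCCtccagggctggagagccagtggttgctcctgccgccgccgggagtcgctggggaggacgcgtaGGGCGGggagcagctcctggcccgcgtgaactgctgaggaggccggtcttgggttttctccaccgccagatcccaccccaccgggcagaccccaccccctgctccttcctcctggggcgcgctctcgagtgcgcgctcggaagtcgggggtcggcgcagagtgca
The Lama5 window holds 4 matches, that of Lamb1 2 and that of Lamc1 5, of which a neighbouring pair overlaps by 1 base. None of the 3 windows holds TATAAA on either strand, a form of the TATA box that cannot overlap with a GC box match. Among 33469 promoter windows of RefSeq, 33.1% hold GGGCGG on either strand and 14.2% hold TATAAA. Of the 10 member genes called higher with siRNA 3488, 6 have a window in the table, and 5 of these hold the GC box and 0 the TATA box. Over all members 25 have a window, 16 with the GC box and 4 with the TATA box. These matches are letters in a window and say nothing of binding.

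The β3 chain gene Lamb3, part of laminin-332 of hemidesmosomes, differed between the siRNAs. It read 1041 and 1089 on the siRNA 3488 arrays, 1572 and 1307 on those of siRNA 2600, and 1233, 1209.7 and 1249 on the scrambled arrays. The siRNA 3488 arrays were below the scrambled range and the siRNA 2600 arrays above it. Neither siRNA passed against the control (log2 -0.21 ± 0.09, limma adjusted p = 0.127, and 0.22 ± 0.09, limma adjusted p = 0.263), while the difference between the siRNAs did (-0.43 ± 0.09, limma adjusted p = 0.0326). That call was lost without siRNA 2600 replicate 1 (-0.30, 0.149), either siRNA 3488 array (0.0857 and 0.112) or any 1 of the scrambled arrays (0.0576 to 0.0644).

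Nid2 encodes nidogen 2, which links laminin to collagen IV. Its signals were 2125 and 2051 on the siRNA 3488 arrays, 1492 and 1851 on those of siRNA 2600, and 1492, 1466 and 1546 on the scrambled arrays. The siRNA 3488 arrays were highest, 1 siRNA 2600 array lay between and the other within the scrambled range. The log2 change was 0.48 ± 0.09 with siRNA 3488 (limma adjusted p = 0.00907), which is 1.39-fold, and 0.15 ± 0.09 with siRNA 2600 (0.479). Without siRNA 3488 replicate 2 the change was 0.50 and did not pass. With no intensity trend Nid2 did not pass either (limma adjusted p = 0.0588).

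The other tested basement membrane genes did not pass in any of the comparisons. They are Lama3 (α3 chain), Lamb2 (β2 chain), Nid1 (nidogen 1), Hspg2 (perlecan, a large heparan sulfate proteoglycan) and Agrn (agrin). With siRNA 3488 their log2 changes ran between -0.09 for Lama3 and 0.34 ± 0.20 for Nid1. Lamb2 had 0.02 ± 0.06 and Agrn 0.00 ± 0.07, with 95% intervals of -0.12 to 0.16 and -0.16 to 0.17. With siRNA 2600 the 5 genes ran between -0.14 (Agrn) and 0.14 (Nid1). Lama1 and Lama4 were under the filter, with signals of 2.33 to 63.9.

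Among fibronectin and the matricellular genes, 4 of 6 genes on the array were tested. With siRNA 3488 Fn1 and Sparc were called higher and Spp1 and Postn were not called, with a median log2 change of 0.28. With siRNA 2600 Spp1 alone was called, with a median of 0.06. Of the 5 tested probe sets 3 were higher with siRNA 3488 and 1 with siRNA 2600, beside 6.89% and 0.548% of all tested. All 5 lay in the brightest 10%, where 37.4% of all probe sets were called higher with siRNA 3488.

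Fn1 read 4276 and 4587 on the siRNA 3488 arrays, 3413 and 3359.9 on those of siRNA 2600, and 3126, 3144 and 3193 on the scrambled arrays. The siRNA 3488 arrays were well above the rest, and the siRNA 2600 arrays stood just above the scrambled ones without overlap. Its log2 change measured 0.49 ± 0.06 with siRNA 3488 (limma adjusted p = 0.00223), 0.10 ± 0.06 with siRNA 2600 (0.455) and 0.39 ± 0.07 between the siRNAs (0.0144). Over the alternatives the rise with siRNA 3488 ran between 0.37 and 0.58 and always passed.

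Sparc encodes a calcium-binding protein that handles collagen outside the cell, and both of its probe sets gave the same picture. At 1367563_at it read 15601 and 16459 on the siRNA 3488 arrays, 11871 and 12289.5 on those of siRNA 2600, and 11559, 12553 and 11779.6 on the scrambled arrays. At 1367562_at the signals were 8739 and 9439 on the siRNA 3488 arrays, 6601 and 7143 on those of siRNA 2600, and 6146, 6347 and 7406 on the scrambled arrays. At each the siRNA 3488 arrays were above all others, and the siRNA 2600 arrays lay inside the scrambled range. The log2 changes with siRNA 3488 were 0.42 ± 0.06 (limma adjusted p = 0.00425) and 0.46 ± 0.09 (0.00872), with siRNA 2600 0.01 and 0.05, and between the siRNAs 0.41 ± 0.07 (0.0144) and 0.40 ± 0.09 (0.0369). After quantile normalization the changes with siRNA 3488 were 0.04 and 0.19 and no longer passed, and without siRNA 3488 replicate 2 the call at 1367562_at was lost (0.40, limma adjusted p = 0.0759).

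Spp1 encodes osteopontin, a secreted phosphoprotein that binds integrins and is made by injured tubules. It read 12414 and 13572 on the siRNA 3488 arrays, 14623 and 17515 on those of siRNA 2600, and 11719, 12439 and 11277 on the scrambled arrays. Here the siRNA 2600 arrays were the highest, and the siRNA 3488 arrays overlapped with the scrambled range. The log2 change was 0.14 ± 0.08 with siRNA 3488 (limma adjusted p = 0.300, and lower after quantile normalization, as given above), 0.44 ± 0.08 with siRNA 2600 (0.0418) and -0.30 ± 0.09 between the siRNAs, which did not pass (0.0855). The call with siRNA 2600 was lost without siRNA 2600 replicate 2 (0.31, limma adjusted p = 0.183) or any 1 scrambled array (0.12 to 0.179). Between the siRNAs it passed after quantile normalization (-0.62, limma adjusted p = 0.0025) and cyclic loess (-0.51, 0.00839).

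Postn, the periostin gene, read 4045 and 3655 on the siRNA 3488 arrays, 4043 and 4308 on those of siRNA 2600, and 4268, 3949 and 4387 on the scrambled arrays, and these ranges overlap. Its log2 changes were -0.13 ± 0.07 and -0.01 ± 0.07, and neither passed. Thbs2 and Tnc, the genes of thrombospondin 2 and tenascin C, were under the filter with signals of 11.1 to 89.8.

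**Figure D4:**
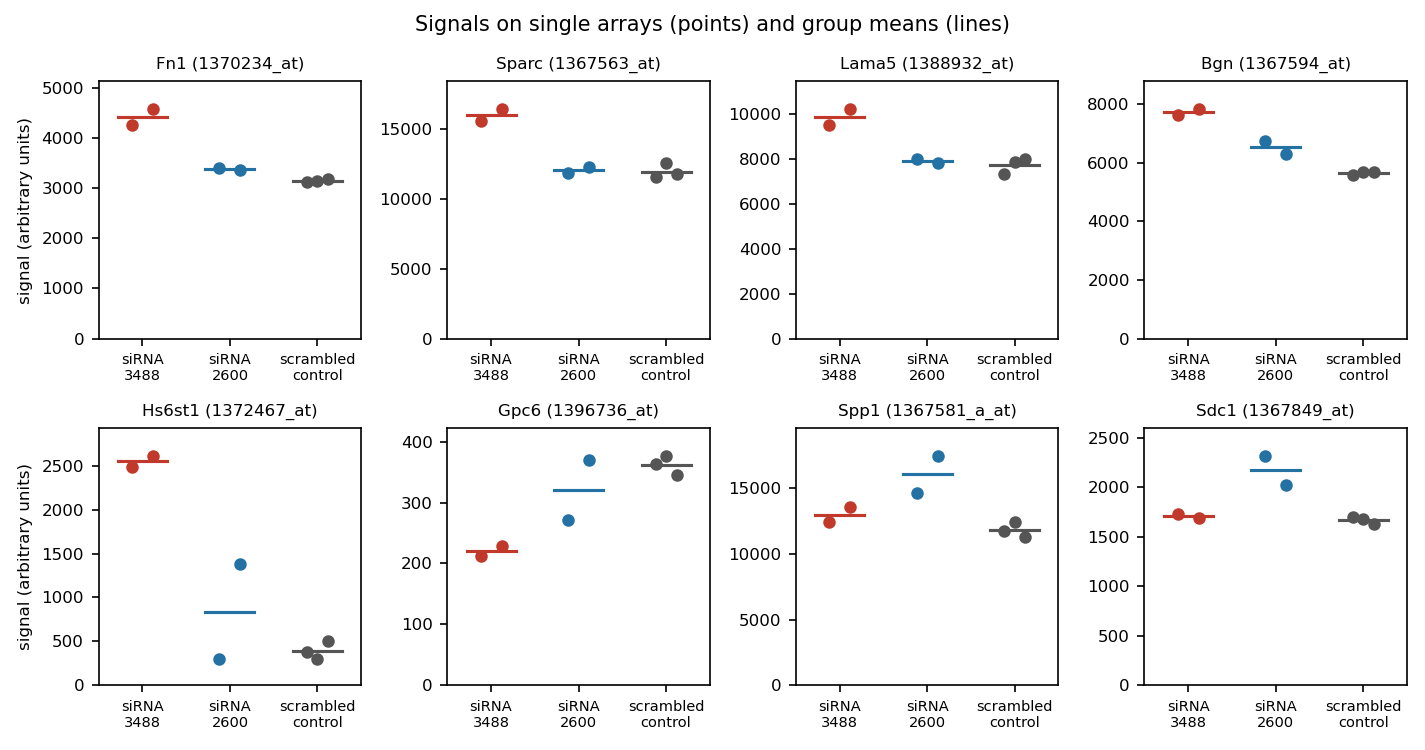
Signal in arbitrary units (axis starting at 0) of 8 probe sets in siRNA 3488, siRNA 2600 and scrambled control arrays; points are single arrays and lines are group means (n = 2, 2 and 3). Fn1, Sparc, Lama5, Bgn and Hs6st1 are highest and Gpc6 lowest on the siRNA 3488 arrays, Spp1 and Sdc1 are highest on the siRNA 2600 arrays, and the 2 siRNA 2600 arrays stand apart at Hs6st1.

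Of the 3 small leucine-rich proteoglycan genes only Bgn was measured well enough to be tested. Biglycan, its product, carries chondroitin or dermatan sulfate chains. Bgn read 7631 and 7833 on the siRNA 3488 arrays, 6744 and 6304 on those of siRNA 2600, and 5567, 5683 and 5669 on the scrambled arrays. The 3 groups did not overlap, with the siRNA 2600 arrays between the other groups. Its log2 change measured 0.46 ± 0.06 with siRNA 3488 (limma adjusted p = 0.00282), which is 1.37-fold. With siRNA 2600 it was 0.21 ± 0.06 (limma adjusted p = 0.127), and between the siRNAs 0.25 ± 0.06 (0.0501), and neither passed. Over the alternatives the rise with siRNA 3488 ran between 0.23 and 0.55 and always passed. Dcn and Lum, the genes of decorin and lumican, were under the filter with signals of 1.21 to 68.5.

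Genes of hyaluronan synthesis and of the large proteoglycans that bind hyaluronan were at low signal. Vcan, the versican gene, had 5 probe sets between 1.05 and 21.6, and Acan, the aggrecan gene, had 2 between 16.9 and 91.8, all untested. Versican and aggrecan are known substrates of other ADAMTS proteases, and a change in their transcripts was not detectable at these signals. Has2, a hyaluronan synthase gene, was tested and read 82.4 and 108 on the siRNA 3488 arrays, 40.1 and 96.5 on those of siRNA 2600, and 70.2, 82.6 and 72 on the scrambled arrays. All 3 groups overlap, and the log2 changes of 0.34 ± 0.37 and -0.26 ± 0.37 did not pass (limma adjusted p = 0.577 and 0.794).

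Of 8 genes of heparan sulfate carriers 7 were tested, with 13 probe sets. With siRNA 3488, 1 gene (Sdc4) was called higher and 1 (Gpc6) lower, with a median log2 change of 0.07 over the 7. With siRNA 2600, 1 gene (Sdc1) was called higher, with a median of 0.02. Of the 13 probe sets 1 was higher and 3 were lower with siRNA 3488, beside 6.89% and 8.74% of all tested. The 3 lower were all of Gpc6. Sdc4 lay in the brightest 10%, where 37.4% of all probe sets were called higher. With siRNA 2600, 1 of the 13 was higher, beside 0.548%.

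Sdc4 encodes syndecan 4, which works with integrins at focal adhesions on fibronectin. It read 13284 and 14082 on the siRNA 3488 arrays, 10545 and 11198 on those of siRNA 2600, and 10368, 10749 and 11766 on the scrambled arrays. The siRNA 3488 arrays were above all others, and the siRNA 2600 arrays lay inside the scrambled range. The log2 change was 0.32 ± 0.07 with siRNA 3488 (limma adjusted p = 0.0151), -0.01 ± 0.07 with siRNA 2600 (0.963) and 0.33 ± 0.08 between the siRNAs (0.0372). After quantile normalization the change with siRNA 3488 turned to -0.07 (limma adjusted p = 0.362). The call was also lost after cyclic loess and with no intensity trend. Sdc4 also lost its call without siRNA 3488 replicate 2 (0.28) or scrambled control replicate 1 (limma adjusted p = 0.0649) or 2 (0.0625).

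Sdc1, the gene of syndecan 1, the main syndecan of epithelia, moved with siRNA 2600. At 1367849_at it read 1726 and 1689 on the siRNA 3488 arrays, 2318 and 2016 on those of siRNA 2600, and 1697, 1678 and 1628 on the scrambled arrays. The siRNA 2600 arrays were above all others, while the siRNA 3488 arrays overlapped with the scrambled range. Its log2 change measured 0.03 ± 0.07 with siRNA 3488 (limma adjusted p = 0.789), 0.37 ± 0.07 with siRNA 2600 (0.0464) and -0.34 ± 0.08 between the siRNAs (0.040). At 1376062_at the signals were 267 and 312 on the siRNA 3488 arrays, 360.0 and 321 on those of siRNA 2600, and 377, 269 and 329 on the scrambled arrays, and no comparison passed. The call with siRNA 2600 held without siRNA 2600 replicate 2 and was lost when any other array was left out (limma adjusted p between 0.0624 and 0.178).

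Gpc6 encodes glypican 6, a carrier tied to the membrane by a lipid anchor. It had 4 tested probe sets, all lower with siRNA 3488, and 3 of them passed. At 1396736_at it read 212 and 228 on the siRNA 3488 arrays, 272 and 370.0 on those of siRNA 2600, and 363, 377 and 345 on the scrambled arrays. At 1385876_at the signals were 622 and 545 on the siRNA 3488 arrays, 903 and 1072 on those of siRNA 2600, and 852, 917 and 728 on the scrambled arrays. At both, the siRNA 3488 arrays were below all others and the siRNA 2600 arrays overlapped with the scrambled ones.

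The dimmest Gpc6 probe set, 1378748_at, read 136 and 43.2 on the siRNA 3488 arrays, 147 and 291 on those of siRNA 2600, and 269, 303 and 228 on the scrambled arrays. The brightest, 1372820_at, read 1831 and 1728 on the siRNA 3488 arrays, 1986 and 2222 on those of siRNA 2600, and 1991, 1925 and 2281 on the scrambled arrays. All 4 thus put the siRNA 3488 arrays lowest, by different amounts. The log2 changes with siRNA 3488 were -0.72 ± 0.15 at 1396736_at (limma adjusted p = 0.0126), -0.51 ± 0.12 at 1385876_at (0.0197), -1.79 ± 0.43 at 1378748_at (0.0213) and -0.21 ± 0.09 at 1372820_at, which did not pass (0.126). With siRNA 2600 they were -0.19, 0.25, -0.36 and 0.03, and none passed. Between the siRNAs 1385876_at passed (-0.76 ± 0.13, limma adjusted p = 0.0152), and the others did not (0.0872, 0.0998 and 0.164).

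Leaving out siRNA 3488 replicate 2 ended the 3 Gpc6 calls against scrambled control (limma adjusted p = 0.0656, 0.154 and 0.151), and the change at 1378748_at was then -0.96. Scrambled control replicate 1 did the same when left out (0.0522, 0.0736 and 0.071), and quantile normalization and cyclic loess ended the call at 1385876_at alone (0.0514 and 0.0531). Each of the 3 calls held in 4 of the 7 fits that left out 1 array, so each was also lost with a further array. With no intensity trend none of the 3 passed.

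Sdc2 (syndecan 2), with 3 probe sets, and Gpc1, Gpc3 and Gpc4, genes of further glypicans, did not pass in any comparison. With siRNA 3488 the log2 changes of their tested probe sets lay between -0.16 ± 0.24 (Gpc1) and 0.08 ± 0.08 (Gpc3), and with siRNA 2600 between -0.06 (Gpc1) and 0.20 ± 0.08 (Gpc3). The 3 Sdc2 probe sets had intervals (95%) within -0.25 to 0.22 with siRNA 3488. Sdc3, the syndecan 3 gene, had 3 untested probe sets with signals of 2.03 to 119.

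The heparan sulfate enzyme genes were all tested, 5 genes with 8 probe sets. With siRNA 3488, 2 were called higher, Ext2 and Hs6st1, with a median log2 change of 0.18. Of the 8 probe sets these were 2 higher and 0 lower, beside 6.89% and 8.74% of all tested. With siRNA 2600 limma called 0 of the 8, beside 0.548% higher and 0.483% lower among all tested. Also 0 had an unadjusted p under 0.05, beside 15.2% of all tested, and the median was 0.11.

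Hs6st1 encodes a sulfotransferase that adds sulfate at the C6 position of glucosamine in the chain. It read 2493 and 2620.4 on the siRNA 3488 arrays, 300.3 and 1378 on those of siRNA 2600, and 380.1, 299 and 502 on the scrambled arrays. Both siRNA 3488 arrays were far above the rest, and the siRNA 2600 arrays stood apart from each other, 1 within the scrambled range and 1 above it. The log2 change was 2.73 ± 0.47 with siRNA 3488 (limma adjusted p = 0.00696), 0.74 ± 0.47 with siRNA 2600 (0.505) and 1.99 ± 0.52 between the siRNAs (0.0512). One array decided the siRNA 2600 value, since without its replicate 1 the change was 1.84 and passed (limma adjusted p = 0.0108). Without siRNA 2600 replicate 2 the difference between the siRNAs was 3.09 and passed (limma adjusted p = 0.000709). The siRNA 3488 call missed the threshold without siRNA 3488 replicate 2 (2.69) and with no intensity trend (limma adjusted p = 0.0569).

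Ext2 encodes a subunit of the polymerase that builds the chain. It read 5267 and 5671 on the siRNA 3488 arrays, 5345 and 4994 on those of siRNA 2600, and 4672, 4749 and 4784 on the scrambled arrays. All 4 siRNA arrays were above the scrambled range and overlapped with each other. Its log2 change measured 0.21 ± 0.06 with siRNA 3488 (limma adjusted p = 0.0479), just past the threshold, and 0.13 ± 0.06 with siRNA 2600 (0.378). The call was lost after quantile normalization (0.06), after cyclic loess (0.07), with no filter, without siRNA 3488 replicate 2 (0.15, limma adjusted p = 0.238) and without any 1 scrambled array (0.105 to 0.141).

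Ext1, the other polymerase subunit, had log2 changes of -0.05 ± 0.13 and -0.25 ± 0.27 at its 2 probe sets with siRNA 3488, and none passed. Ndst1, whose product removes acetyl groups and adds N-sulfate, had 0.18 ± 0.16 (limma adjusted p = 0.478). Hs2st1, which encodes the 2-O-sulfotransferase, had 3 probe sets at -0.04, -0.11 and -0.31 ± 0.10 with siRNA 3488. The last of these, 1383724_at, read 784 and 841 on the siRNA 3488 arrays, 1014 and 805 on those of siRNA 2600, and 983, 1068 and 980.1 on the scrambled arrays, and did not pass (limma adjusted p = 0.067). It passed when the siRNA 2600 arrays were left out of the fit (limma adjusted p = 0.0223).

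Set directly against each other, siRNA 3488 and siRNA 2600 differed at 8 of the 39 probe sets. Lama5, Fn1, Sparc at both probe sets and Sdc4 were higher with siRNA 3488, and Lamb3, Sdc1 and Gpc6 at 1385876_at were lower. All 5 that were higher lay in the brightest 10%, where 16.6% of all probe sets were called higher. The 8 calls became 3 without scrambled control replicate 1 or 2, 4 without replicate 3, 1 without siRNA 2600 replicate 1 (Gpc6) and 0 without siRNA 3488 replicate 2. They became 0 when only the 4 arrays compared were fitted, 3 after quantile normalization (1 higher, 2 lower), 5 after median centring (4 higher, 1 lower) and 6 after cyclic loess (2 higher, 4 lower). Lamb1, Bgn and Hs6st1 missed the threshold narrowly (limma adjusted p = 0.0512, 0.0501 and 0.0512) and passed when the upper 40% of probe sets or 1 probe set for each gene was tested.

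With both siRNAs pooled against the scrambled siRNA, Bgn came closest to a call, with a log2 change of 0.33 ± 0.09 (limma adjusted p = 0.126). Nid2 had 0.31 ± 0.11 and Fn1 0.30 ± 0.11. Hs6st1 had 1.74 ± 0.61, and none of these passed. When the 2 siRNAs kept their own means in the fit, 6 probe sets passed, those of Nid2, Fn1, Sparc, Spp1, Bgn and Hs6st1. That fit averages the 2 siRNA effects, so a probe set can pass through a single siRNA, and a pass does not show a shared change. Sparc at 1367563_at had 0.42 with siRNA 3488 and 0.01 with siRNA 2600, and Spp1 had 0.14 and 0.44.

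Further genes of the same pathways, not on the list of 38, were counted over 6 lists, chosen with earlier results of these data known. Of 65 such genes with a tested probe set, 10 were called higher and 9 lower with siRNA 3488. In probe sets these were 13 and 11 of 96, beside 6.89% higher and 8.74% lower among all tested. With siRNA 2600 limma called 0, with 17 of 96 probe sets at an unadjusted p under 0.05, beside 15.2% of all tested. Between the siRNAs 5 genes were higher and 3 lower, in probe sets 6 and 5 of 96, beside 2.84% and 3.17%. Over these 65 genes the median log2 change with siRNA 3488 was 0.01.

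Other basement membrane genes (6 tested, among them the collagen IV genes Col4a1, Col4a2 and Col4a5) had none called with siRNA 3488, with a median of 0.15 and 1 of 7 probe sets at an unadjusted p under 0.05, beside 31.9% of all tested. Of 11 other matrix glycoprotein genes 4 were higher and 1 lower. Counted as probe sets, 4 and 1 of 12 were called, beside 6.89% higher and 8.74% lower among all tested. Ccn2, the gene of connective tissue growth factor, read 16799 and 16519 on the siRNA 3488 arrays, 11753 and 12307 on those of siRNA 2600, and 13079, 12702 and 13579 on the scrambled arrays (log2 0.35 ± 0.06 with siRNA 3488, limma adjusted p = 0.0069). Mfge8, the gene of a glycoprotein that binds αv integrins, rose by 0.39 ± 0.07 (limma adjusted p = 0.00702), and Thbs3, the thrombospondin 3 gene, fell by 0.29 (0.016). Ccn1 (0.88) and the fibulin 2 gene Fbln2 (0.61) complete the 4, named after their values were seen.

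Among 9 other leucine-rich and hyaluronan-binding genes 2 were higher with siRNA 3488, the hyaluronan receptor genes Hmmr (0.76 ± 0.10 and 0.58 ± 0.12 at its 2 probe sets) and Cd44 (0.80 ± 0.23). The other Cd44 probe set pointed the opposite way (-0.32 ± 0.22) and was not called. On this list 3 of 16 probe sets were higher and 0 lower with siRNA 3488, beside 6.89% and 8.74% among all tested. Between the siRNAs Ogn, the osteoglycin gene, was higher with siRNA 3488 at 1 of 4 probe sets (0.56 ± 0.09, limma adjusted p = 0.0141, the others 0.33 to 0.49) and Srgn, the serglycin gene, lower (-0.41 ± 0.09, limma adjusted p = 0.0364).

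Of 20 other heparan sulfate genes 1 was higher and 4 lower with siRNA 3488. Counted as probe sets, 1 and 5 of 25 were called, beside 6.89% higher and 8.74% lower among all tested. For the chondroitin and dermatan sulfate enzymes below, 0 and 2 of 10 probe sets were called. The other heparan sulfate gene called higher was Uxs1, which makes UDP-xylose, the donor of the first linker sugar (0.62 ± 0.16). Lower were Xylt2, the xylosyltransferase that starts the chain (-0.49 at 2 of 3 probe sets, limma adjusted p = 0.0107 and 0.0443, and -0.22 at the third), and Fam20b, the kinase that phosphorylates that xylose (-1.31 ± 0.28, limma adjusted p = 0.0132). At this probe set, 1380993_at, Fam20b read 78.4 and 151 on the siRNA 3488 arrays, 232 and 233 on those of siRNA 2600, and 307, 206 and 311 on the scrambled arrays. The other tested Fam20b probe set, much brighter, had -0.17 ± 0.10 and was not called. Extl3 (-0.66, and 0.04 at its other probe set) and Glce (-0.36) are the others, named after their values were seen. Chondroitin and dermatan sulfate enzymes had 0 higher and 2 lower of 7, Csgalnact1 (-0.74 ± 0.15, and -0.15 at its other probe set) and Csgalnact2 (-0.41 ± 0.09), which both add N-acetylgalactosamine at the start of chondroitin sulfate, with a median of -0.21.

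Of 12 receptor genes for laminin and fibronectin 3 were higher and 2 lower with siRNA 3488. Counted as probe sets, 5 and 3 of 26 were called, beside 6.89% higher and 8.74% lower among all tested. Itgb1, the β1 integrin gene, at 1368819_at read 11978 and 11964 on the siRNA 3488 arrays, 9748 and 9935 on those of siRNA 2600, and 8885, 9705 and 9360.5 on the scrambled arrays (log2 0.36 ± 0.06 with siRNA 3488, limma adjusted p = 0.00616). Its other probe set had 0.04 ± 0.06 and was not called. Rpsa, a ribosomal protein gene also known as the laminin receptor, had 0.51 and 0.31 at 2 called probe sets and 0.11 at the third, and near-identical copies of it in the genome make its signal uncertain. Dag1, the dystroglycan gene, is the third, named after its values were seen (0.32 and 0.37 with siRNA 3488 at 2 of 4 probe sets, and 0.25 and 0.07 at the others).

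Itga6, whose α6 integrin chain binds laminin, fell with siRNA 3488 at 2 of 4 tested probe sets. At 1393558_at it read 342 and 350.1 on the siRNA 3488 arrays, 673 and 638 on those of siRNA 2600, and 552, 563 and 634 on the scrambled arrays. The log2 change there was -0.75 ± 0.10 with siRNA 3488 (limma adjusted p = 0.00314), 0.17 ± 0.10 with siRNA 2600 (0.458) and -0.92 ± 0.11 between the siRNAs (0.00551). With siRNA 3488 the other called probe set had -0.47, and the uncalled ones -0.30 and 0.24. Itgav, the αv integrin gene, was also lower with siRNA 3488 at 1 of 3 probe sets (-0.33 ± 0.09, limma adjusted p = 0.0343, the others -0.20 and 0.13).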

How the data were processed

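RNA from 7 cultures of transfected NRK-52E cells was hybridised to 1 Affymetrix rat array each. The authors deposited a signal intensity per probe set, and per the submitters' processing notes the software was GCOS 1.4, with settings not stated there. The deposited intensity values were scaled alike on all arrays and kept so, and which background correction they carry is unknown. Signals under 1 were raised to 1 before log2 was taken.

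Of 31099 probe sets 57 controls were left out, and the upper 60% of the rest by mean log2 signal over all arrays were tested. The platform annotation gave 20826 probe sets 1 symbol, 436 several and 9780 none. Of the first 20764 were found by Entrez ID in RefSeq's GRCr8 table, with 0 symbols changed. The members' genes and all lists were chosen with earlier results of these data known.

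limma 3.58.1 in R 4.3.3 (lmFit, eBayes with an intensity trend) fitted the 3 groups together for the comparisons of single siRNAs, and 2 groups for both siRNAs against scrambled control. Benjamini-Hochberg adjustment ran over all tested probe sets. Differences are given ± the standard error, and intervals are 95%. The fit was tested on simulated data, in which 30% of probe sets changed 1.5-fold and 64% of those changed 2-fold were recovered for siRNA 3488 against scrambled control, among 18625 probe sets. Only 50 probe sets were changed at each size there, while 2911 were called in the data. The adjusted p depends on how many change, so these shares need not hold for the data. Tables were made with Python 3.11.15 and pandas 2.3.3.

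All members are accounted for. Values on every array are given for members called in any comparison, the member brightest in scrambled control in each group of genes, and Lamc1, Fn1, Bgn and Sdc4. Other pathway genes are named by lowest p, at most 2 each way for each list and comparison, apart from those said to be named after their values were seen. The alternatives were 3 other scalings, 2 other filters, 2 treatments of low signals, no intensity trend, 1 probe set for each gene, a replicate block, other arrays in the fit (only the 2 groups compared, or for both siRNAs the mean of the siRNA effects in the fit of 3 groups) and each array left out. No separate batch was tested, since the sources used here give none.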

Additional observations from a re-analysis of the deposited data

Results flagged for a closer look

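These 8 probe sets are given because siRNA 3488 and siRNA 2600, each set against the same scrambled arrays, had effects that differed in the limma test between them, 2 arrays against 2, with the spread estimated over all 7 arrays. With only the 4 arrays compared in the fit, none of the 8 passed. Values are log2 differences, siRNA 3488 minus siRNA 2600. Lama5 differed by 0.32, Fn1 by 0.39, Sdc4 by 0.33 and Sparc by 0.41 at 1367563_at and 0.40 at 1367562_at, all higher with siRNA 3488. Lamb3 differed by -0.43, Sdc1 by -0.34 and Gpc6 at 1385876_at by -0.76, all lower with siRNA 3488. Groups of 2 or 3 arrays are too small for a test of single arrays that stand apart.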

How the results depend on the processing

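Of the 14 probe sets called with siRNA 3488 against scrambled control, quantile normalization gave 7 calls (4 higher, 3 lower, of which Spp1 at -0.23 was added), cyclic loess 7 (5 higher, 2 lower) and no intensity trend 3, and leaving out single arrays gave 3 to 15. Under quantile normalization 2 values changed sign, Lamc1 at 1371322_at to -0.0297 and Sdc4 to -0.0669. With siRNA 2600 the 2 calls became 0 with no filter, 0 with no intensity trend, 1 with the replicate block, 1 with other arrays in the fit, and 0 to 2 with single arrays left out. Between the siRNAs the 8 calls became 3 after quantile normalization, 5 after median centring, 3 with no filter, 0 with no intensity trend, 0 with other arrays in the fit, and 0 to 9 with single arrays left out. For both siRNAs the 0 calls became 6 with other arrays in the fit and 0 to 4 with single arrays left out. The cause of these changes was not tested, and fits that left out an array also had fewer arrays. Where a group kept 1 array, that array was assumed to vary like the other groups. Median centring moved the median log2 change of all probe sets with siRNA 3488 to 0.03, against -0.06 as deposited.

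The labels give the groups shared replicate numbers. Deviations of same-numbered arrays correlated between -0.05 and 0.16, so the numbers are not shown to pair the arrays. With the replicate block the 8 calls between the siRNAs became 12, and Ext2 with siRNA 3488 lost its call (0.21, limma adjusted p = 0.0615).

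Has2 lay near the filter level, and 9 genes had no tested probe set and were not compared.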
